A study of Homo sapiens with 48 samples.

Results

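ALDOC, ATP5D and USMG5 were measured by 6 of the 1113 probes of a targeted panel for 452 genes, in 48 libraries of human stem cell cultures. The probes were taken by gene symbol alone, whatever their values. ALDOC had 3 probes (1275, 1276 and 1277), ATP5D had 1 (probe 45) and USMG5 had 2 (785 and 1026). ATP5D is now named ATP5F1D, and USMG5 is now named ATP5MK. The assay, RASL-Seq, joins pairs of DNA probes that anneal next to each other on polyadenylated RNA, and the joined pairs are amplified and counted as reads.

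ALDOC encodes aldolase C, the brain form of the glycolytic enzyme that splits a fructose bisphosphate into a pair of triose phosphates. In brain it is known as a marker of astrocytes and of a subset of Purkinje cells. ATP5D encodes the delta subunit, in the central stalk of the mitochondrial ATP synthase, the rotary enzyme that makes ATP from the proton gradient built by the respiratory chain. USMG5 encodes a small membrane subunit of the same enzyme, known for its part in joining ATP synthase complexes into dimers in the inner mitochondrial membrane. Human pluripotent stem cells are known for a high rate of glycolysis, and many lineages shift towards mitochondrial respiration as they differentiate.

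All libraries came from the established human embryonic stem cell line WA09 (H9), whose genotype the labels give as normal. Embryoid bodies (EBs, floating aggregates of differentiating stem cells) were seeded at 20000 cells per well of a round-bottom plate and kept for 7 days in E6 medium. For the first 24 hours they received either CEPT, a cytoprotective mixture of chroman 1, emricasan, polyamines and trans-ISRIB, or Y-27632, a kinase inhibitor used to keep dissociated stem cells alive. There were 16 libraries of each arm, CEPT EB and Y27 EB. The control cultures had 4 libraries each. They were untreated hESC, ectoderm made over 6 days in E6 medium with 100 nM LDN-193189 and 2 µM A83-01, and mesoderm and endoderm, each made for 5 days with a commercial induction product. Culture format, medium and age differ between the EBs and hESC all at once, so their parts in any difference between these groups cannot be told apart. The labels do not say whether libraries of a group came from separate cultures, and the p-values measure the spread between these libraries, which may be technical.

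Library totals ranged from 379810 to 5577868 reads, with a median of 3583316. Y27 EB replicate 15 had the lowest total, and it alone lay under 0.25 of the median. The lowest count of any of the 6 probes in any library was 43 reads, for ALDOC probe 1277 in CEPT EB. None of the values of these 6 probes therefore rests on an absent probe. Some probes of other genes described below were near 0 in some groups. By the median over a group's libraries, summed marker levels were highest in the group they name for the pluripotency, ectoderm, mesoderm and endoderm lists. For the pluripotency list the lead was small, with medians of 18529 CPM in hESC, 16848 CPM in endoderm and 13789 CPM in ectoderm. A single Y27 EB library had a mesoderm sum of 4159 CPM, above the highest mesoderm library at 4039 CPM, where the Y27 EB median was 40.2 CPM. POU5F1, a defining pluripotency gene, reached only 8.63 CPM in hESC, while NANOG was at 1772 CPM there. In the EBs the 6 neuron markers on the panel summed to a median of 13961 CPM with CEPT and 15782 CPM with Y-27632, against 1689 CPM in hESC.

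Levels are given as CPM, a probe's reads scaled to a common library total, with TMM factors computed over all 48 libraries. A probe counts reads at a single site of a transcript, and probes differ in how well they capture it. Levels of different probes were therefore not compared with each other. Changes come from edgeR's quasi-likelihood fits, as log2 fold changes with a standard error (SE) and a p-value adjusted over all probes tested by the Benjamini-Hochberg method. A probe was called at an adjusted p under 0.05. Each fit has its own scaling factors, so a fitted change can differ from the ratio of 2 levels. Fewer cells of a type and less RNA per cell cannot be told apart in these bulk libraries.

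ALDOC lies on chromosome 17 at 28573120 to 28576895 (RefSeq, GRCh38.p14, minus strand). Its probes sit at positions 405 (probe 1276), 725 (probe 1275) and 1564 (probe 1277) of NM_005165. ALDOC was high in hESC and mesoderm, far lower in ectoderm and endoderm, and in between by mean in the EBs. For probe 1275, the hESC replicates 1 to 4 were at 879.7, 991.8, 885.2 and 944.3 CPM. The ectoderm replicates were at 105.6, 98.3, 87.9 and 110.9 CPM. The endoderm replicates were at 74.7, 93.4, 77.8 and 89.3 CPM. Every ectoderm and endoderm library lay far below every hESC library, and the ectoderm and endoderm ranges overlapped. The mesoderm replicates were at 924.4, 858.7, 773.9 and 880.4 CPM, within and below the hESC range.

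**Figure D1:**
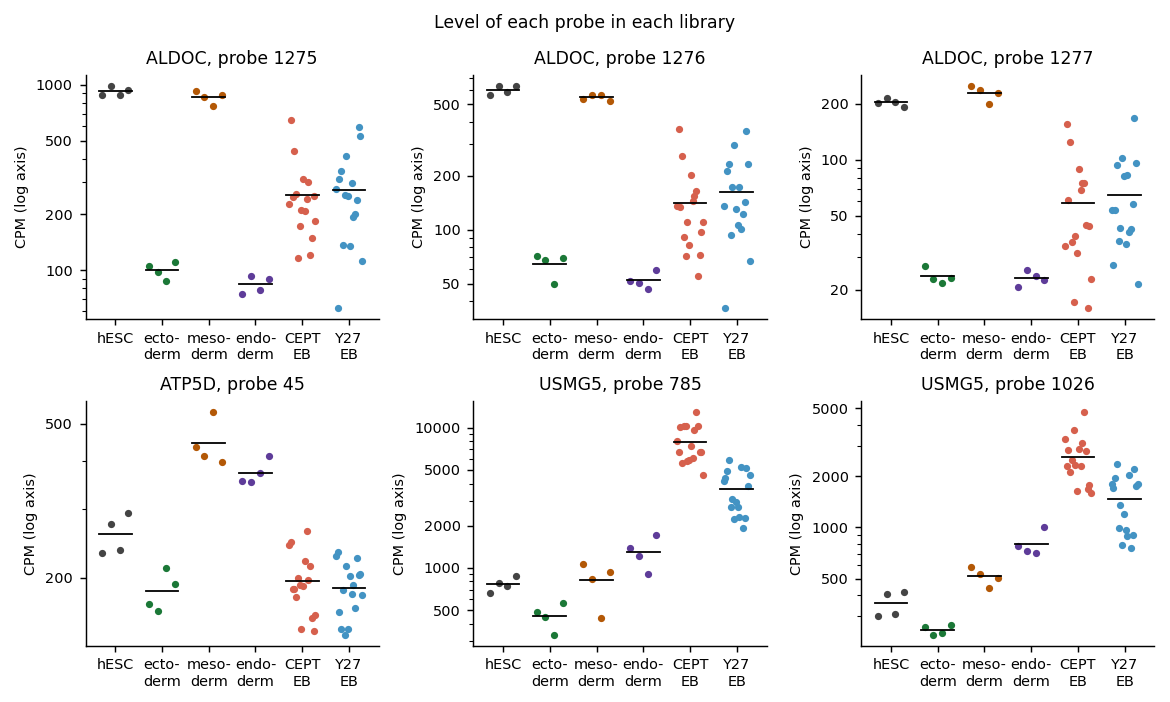
Level of each of the 6 probes (CPM, log axis) in each of the 48 libraries, by group; each point is a library and each bar the group mean. The 3 ALDOC probes have their lowest group means in ectoderm and endoderm and a wide spread in both EB arms, ATP5D stays between 142 and 536 CPM, and both USMG5 probes are highest in CEPT EB.

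In ectoderm, ALDOC fell with all 3 probes. Probe 1275 had a mean of 925 ± 53.1 CPM in hESC and of 101 ± 9.93 CPM in ectoderm (SD, n = 4 each), and was 9.51-fold lower (log2 fold change -3.25 ± 0.11, SE; adjusted p 2.04e-15, edgeR). Probe 1276 was 9.62-fold lower and probe 1277 8.91-fold lower, with adjusted p of 2.22e-15 and 2.42e-14 in edgeR's test. In endoderm, probe 1275 was at 83.8 ± 8.99 CPM (SD, n = 4), 12.4-fold lower than hESC (log2 fold change -3.63 ± 0.11, SE; adjusted p 7.32e-16, edgeR). Probe 1276 was 12.96-fold lower and probe 1277 9.92-fold lower there. All 6 probes of ALDOC, ATP5D and USMG5 were called in each of these lineages, where 81.7% of 903 tested probes were called in ectoderm and 78.2% in endoderm. In ectoderm all 6 were lower, as were 38.5% of all tested probes. In endoderm the 3 ALDOC probes were lower, as were 39.8% of those tested, and ATP5D and both USMG5 probes were higher, as were 38.4%. The ranges of hESC and the lineage did not overlap for any of the 6, which held for 78.5% of all tested probes in ectoderm and 73.9% in endoderm. A call as such is therefore common here. A lower log2 fold change than that of ALDOC probe 1275 was found for 107 of the 903 probes in ectoderm. In endoderm this count was 86. With scaling on the reference genes ACTB, GAPDH and PGK1, the fall of probe 1275 was 1.68 on the log2 scale in ectoderm and 2.64 in endoderm, still called. GAPDH and PGK1 are themselves glycolytic genes that fell in both lineages, so that scaling takes part of the change away by its construction.

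In mesoderm, ALDOC was 1.30-fold lower with probe 1275 (log2 fold change -0.38 ± 0.10, SE; adjusted p 0.00215, edgeR) and 1.34-fold lower with probe 1276 (-0.42 ± 0.10, adjusted p 0.000884, edgeR). Probe 1277 was at 229 ± 21.7 CPM in mesoderm and 204 ± 9.50 CPM in hESC (SD, n = 4 each) and was not called (-0.10 ± 0.11, adjusted p 0.425, edgeR). Of the 6 probes, 3 were called in mesoderm (ALDOC probes 1275 and 1276 and ATP5D), against 77.5% of all 903 tested. The ranges of mesoderm and hESC did not overlap for 2 of the 6, ATP5D and USMG5 probe 1026, against 71.2% of those tested. The small ALDOC decreases did not hold under several other settings. Scaling by library totals alone ended the call of probe 1275 (-0.050), and so did the fit of all 48 libraries (-0.14), summing the probes per gene (-0.15), or leaving out mesoderm replicate 2, 3 or 4 (between -0.24 and -0.14). With reference gene scaling, probes 1275 and 1276 rose by 0.49 and 0.44. Probe 1276 lost its call with library totals (-0.090), in the fit of all 48 libraries (-0.18) and without mesoderm replicate 4 (-0.25). The difference between mesoderm and ectoderm was 7.32-fold for probe 1275, with ranges that did not overlap, in a comparison that called 80.2% of tested probes.

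The other glycolytic genes measured were GAPDH and PGK1, enzymes of the lower part of glycolysis, LDHA, which turns pyruvate into lactate, and SLC16A1, a carrier that moves lactate across the cell membrane. Together they had 10 probes. All 10 fell in ectoderm, where 38.5% of all tested probes were lower. Their median log2 fold change was -1.99, against 0.14 over all probes. LDHA probe 1204 was low in both groups, at 4.95 CPM in hESC and 0.45 CPM in ectoderm. LDHA probe 1202 fell most among the probes above 10 CPM in hESC, with a log2 fold change of -3.30. Its means were 1312 ± 261 CPM in hESC and 137 ± 8.97 CPM in ectoderm (SD, n = 4 each). In endoderm 9 of the 10 fell, with a median of -1.39 against 0 over all probes, where 39.8% of all tested probes were lower. There SLC16A1 probe 647 rose by 0.84 on the log2 scale. In mesoderm 6 fell and none rose, with a median of -0.68 against -0.18, where 43.5% of all tested probes were lower. GAPDH probe 882 fell there by 1.24, a larger decrease than any ALDOC probe showed in mesoderm. LDHA is also the only other gene on the panel from the list of hypoxia targets used here, a list that does not include PGK1.

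In the EBs, ALDOC was lower than in hESC and higher than in ectoderm and endoderm with all 3 probes. Probe 1275 ranged from 116 through a median of 236 to 644 CPM over the 16 CEPT EB libraries. Over the 16 Y27 EB libraries it ranged from 62.3 through a median of 253 to 592 CPM. No EB library reached the lowest hESC library, at 879.7 CPM. Against hESC, probe 1275 was 3.53-fold lower in CEPT EB (log2 fold change -1.82 ± 0.27, SE; adjusted p 2.48e-06, edgeR) and 3.38-fold lower in Y27 EB (-1.76 ± 0.35, adjusted p 1e-04, edgeR). Probes 1276 and 1277 fell as well in both arms, by between 1.65 and 2.07 on the log2 scale. Falls larger than that of probe 1275 were found for 149 of 940 tested probes in CEPT EB and 165 of 963 in Y27 EB. All 6 probes were called in both comparisons, against 73.4% of 940 tested probes for CEPT EB and 74.1% of 963 for Y27 EB. The 4 ALDOC and ATP5D probes were lower, as were 31.2% and 32.6% of tested probes, and the 2 USMG5 probes were higher, as were 42.2% and 41.5%. The ranges of hESC and the arm did not overlap for 5 of the 6 in both comparisons, all but ATP5D, against 56.8% and 55.1% of tested probes. With reference gene scaling, probe 1277 was not called in Y27 EB (-0.49, adjusted p 0.102, edgeR). Against ectoderm, probe 1275 was 2.41-fold higher in CEPT EB (adjusted p 0.00191, edgeR), where 72.8% of tested probes were called. In Y27 EB it was 2.04-fold higher than in ectoderm (adjusted p 0.0305, edgeR), where 72.6% were called, and the ranges overlapped. Against endoderm, it was 3.19-fold higher in CEPT EB and 3.11-fold higher in Y27 EB (adjusted p 0.000202 and 0.00239, edgeR), where 78.9% and 77.5% of tested probes were called. The EB and lineage ranges overlapped for ALDOC in these 4 comparisons, except for probe 1275 in CEPT EB.

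Beside these ALDOC levels, 3 of the 7 markers of astroglia and radial glia on the panel were above a mean of 10 CPM in the EBs. The sum over all probes of the 7 markers ranged from 2705 to 8814 CPM in CEPT EB. In Y27 EB this sum ranged from 2288 to 6505 CPM and in hESC from 1822 to 2232 CPM. It was higher by median in the lineages than in either EB arm, from 7003 to 7570 CPM in ectoderm, from 5651 to 6143 CPM in mesoderm and from 5415 to 5687 CPM in endoderm. The astrocyte genes GFAP, AQP4 and ALDH1L1 were near 0. GFAP was at 0.030 CPM in CEPT EB and 0.098 CPM in Y27 EB, AQP4 at 0.24 and 0.25 CPM, and ALDH1L1 at 0.72 and 0.44 CPM. HOPX, a radial glia gene, was at 0 in all libraries of both arms. S100B, a calcium-binding protein of astroglia, was at 315 CPM in CEPT EB and 167 CPM in Y27 EB, against 0.32 CPM in hESC. FABP7, a fatty acid binding protein of radial glia, was at 1750.1 and 1296 CPM, against 29.9 CPM in hESC and 359 CPM in ectoderm. GJA1, a gap junction gene and the other marker above 10 CPM, was at 783 and 762 CPM, against 1044.5 CPM in hESC and 3849 CPM in ectoderm. The 4 neural crest markers on the panel were all above a mean of 10 CPM in both EB arms. All probes of these 4 summed to a median of 3682 CPM in CEPT EB and 4461 CPM in Y27 EB, against 397 CPM in hESC. Which cells held the ALDOC RNA was not tested.

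**Figure D2:**
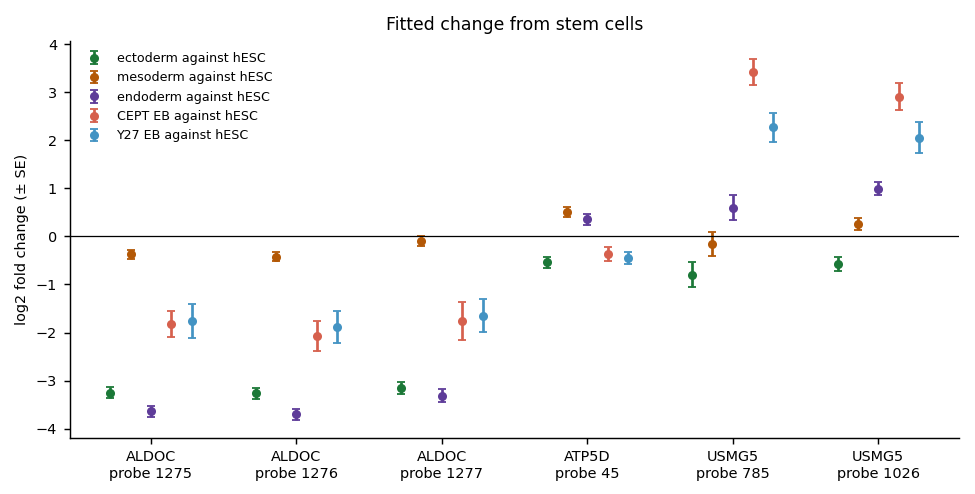
Fitted log2 fold change (± SE) of each probe in 5 comparisons with the 4 hESC libraries, from edgeR; points above 0 are higher than in hESC. The 3 ALDOC probes lie between -3.70 and -0.10, ATP5D between -0.54 and 0.50, and USMG5 reaches 3.42 with probe 785 in CEPT EB.

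CEPT EB and Y27 EB were compared to ask what the first-day treatment changed at day 7. ALDOC did not differ beyond the spread between libraries. Probe 1275 had a mean of 256 ± 131 CPM with CEPT and 271 ± 145 CPM with Y-27632 (SD, n = 16 each), a log2 difference of -0.10 ± 0.25 (SE; adjusted p 0.814, edgeR). Probes 1276 and 1277 had log2 differences of -0.23 ± 0.26 and -0.17 ± 0.29 (SE; adjusted p 0.588 and 0.735, edgeR). Without Y27 EB replicate 14, which had the highest ALDOC level of its arm with all 3 probes, probes 1275 and 1277 had differences of 0.044 and 0.028.

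ALDOC varied more among the EBs of an arm than most of the panel. The highest CEPT EB library exceeded the lowest 5.54-fold with probe 1275, 6.59-fold with probe 1276 and 9.79-fold with probe 1277. The SD of log2 CPM over the 16 CEPT EB libraries was 0.63, 0.71 and 0.94 for these probes, against a median of 0.38 over 547 probes. Only 56, 37 and 19 of the 547 had a larger SD. CEPT EB replicates 2, 4, 9 and 12 held the 4 highest levels with all 3 ALDOC probes, so the spread was shared by the sites on the transcript. In Y27 EB, 20, 22 and 25 of 537 probes had a larger SD than probes 1275, 1276 and 1277 respectively. In hESC, by contrast, the ALDOC levels lay within 1.13-fold of each other, and 395 of 499 probes had a larger SD than probe 1275.

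Because of this spread, ALDOC was set beside other genes across the 16 libraries of each arm. The 12 relations were chosen after the values had been seen. ALDOC probe 1275 rose and fell with LDHA probe 1203, at r = 0.763 in CEPT EB (Spearman's rank correlation 0.703, p 0.00027, adjusted p 0.00081) and r = 0.914 in Y27 EB (Spearman 0.918, p 1e-05, adjusted p 4e-05), by two-sided permutation tests on Pearson's r, where 1e-05 is the smallest p that 100000 resamples give. With PGK1 probe 1215, r was 0.735 in CEPT EB (Spearman 0.715, adjusted p 0.00166, permutation) and 0.906 in Y27 EB (Spearman 0.903, adjusted p 4e-05, permutation). Without the 2 libraries farthest from the ALDOC median, r remained 0.716 and 0.847 for LDHA and 0.682 and 0.846 for PGK1. With GAPDH probe 882, r was 0.844 in Y27 EB (Spearman 0.835, adjusted p 4e-05, permutation) and 0.837 without the 2 farthest libraries. In CEPT EB it was 0.695 (Spearman 0.727, adjusted p 0.0053, permutation), but 0.486 (p 0.0787, permutation) without replicates 2 and 6, so Pearson's r there rests on those libraries. The rank correlation over all 16 had an adjusted p of 0.0059 (permutation). With ALDOC probe 1276 in place of 1275, r was 0.534 (adjusted p 0.0648, permutation).

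ALDOC did not follow the lactate carrier or the ATP synthase subunit. With SLC16A1 probe 646, r was 0.265 in CEPT EB (Spearman -0.0088, adjusted p 0.470, permutation) and -0.148 in Y27 EB (Spearman -0.300, adjusted p 0.740, permutation). With USMG5 probe 785, r was -0.136 in CEPT EB (Spearman 0.0118, adjusted p 0.740, permutation) and 0.0591 in Y27 EB (Spearman 0.124, adjusted p 0.833, permutation). The libraries share no known batch label, and differences in cell makeup between them were not tested.

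**Figure D3:**
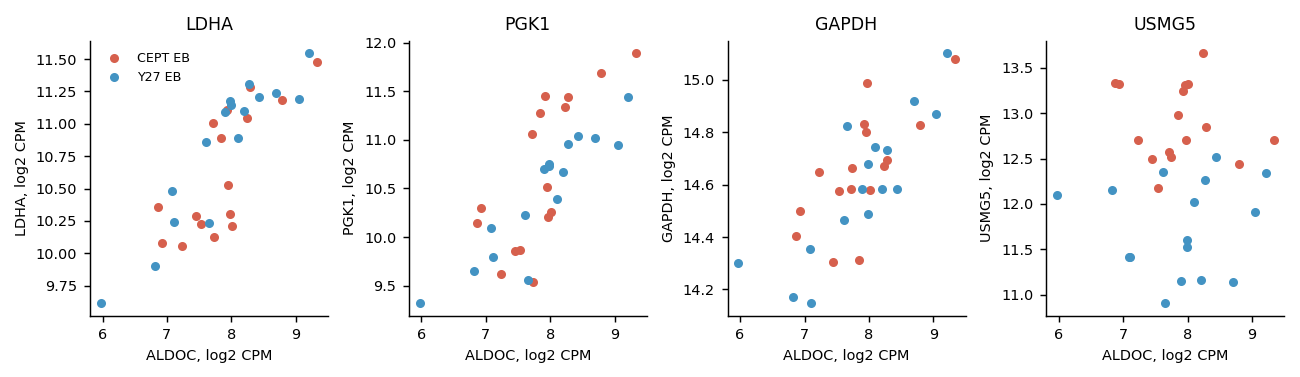
Log2 CPM of LDHA (probe 1203), PGK1 (probe 1215), GAPDH (probe 882) and USMG5 (probe 785) against ALDOC (probe 1275); each point is 1 of 16 CEPT EB or 16 Y27 EB libraries. The first 3 genes rise with ALDOC, with r between 0.695 and 0.914, while the USMG5 points separate by arm and show no slope.

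The other glycolytic genes gave 2 calls in 10 probes between the EB arms, both for SLC16A1 and both lower in CEPT EB. Over all tested probes 23.6% were called and 13% were lower, so this count is near that of the panel. Probe 646 was lower in CEPT EB by 0.21 on the log2 scale (adjusted p 0.0208, edgeR) and probe 647 by 0.28 (adjusted p 0.00481, edgeR). The 8 probes of GAPDH, PGK1 and LDHA were not called, with LDHA probe 1202 at 0.17 and GAPDH probe 881 at -0.24. Against hESC, 4 of the 10 probes were lower in CEPT EB and 6 in Y27 EB, with none higher. Over all tested probes 31.2% and 32.6% were lower, and 42.2% and 41.5% higher. GAPDH probe 882 was lower by 1.77 and 1.85 on the log2 scale. PGK1, which fell with all 3 probes in ectoderm and endoderm, had log2 differences of -0.37, -0.18 and -0.08 in CEPT EB, none called. In Y27 EB its probe 1215 fell by 0.67 (adjusted p 0.036, edgeR), and the other probes were at -0.40 and -0.42, not called.

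ATP5D lies on chromosome 19 at 1241751 to 1244825 (RefSeq, GRCh38.p14), and probe 45 sits at position 384 of NM_001687. Its level was highest in mesoderm and endoderm. It was higher in mesoderm than in Y27 EB by 2.83-fold, than in CEPT EB by 2.43-fold and than in ectoderm by 2.06-fold. The hESC replicates 1 to 4 were at 231.3, 274.4, 234.9 and 293.7 CPM. The mesoderm replicates were at 435.3, 412.9, 535.6 and 397.7 CPM, and the endoderm replicates at 355.2, 353.4, 372.7 and 411.6 CPM. All of these lay above every hESC library. Scaled by library totals alone, the endoderm replicates were at 243.0, 240.0, 253.8 and 267.1 CPM, within the hESC range of 192.2 to 276.1 CPM. The ectoderm replicates were at 170.5, 163.5, 211.9 and 192.6 CPM, all below every hESC library.

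ATP5D was 1.42-fold higher in mesoderm than in hESC (log2 fold change 0.50 ± 0.11, SE; adjusted p 0.000383, edgeR) and 1.28-fold higher in endoderm (0.36 ± 0.11, adjusted p 0.00629, edgeR). The increase in endoderm was not called with upper-quartile scaling (0.01) or library totals alone (0.062). It was 1.45-fold lower in ectoderm (-0.54 ± 0.11, adjusted p 0.000184, edgeR), but higher by 1.02 with reference gene scaling. In order of level, mesoderm came before endoderm, hESC, CEPT EB, Y27 EB and ectoderm. The neighbours mesoderm and endoderm did not differ beyond their spread (adjusted p 0.220, edgeR, in a comparison that called 76.2% of tested probes), also not with a replicate block over the 3 lineages alone (log2 difference -0.15), nor did CEPT EB and Y27 EB. Y27 EB stood above ectoderm by level, while the fit of these 2 groups put it lower by 0.37 (adjusted p 0.00921, edgeR), so their order depends on the scaling.

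In CEPT EB, ATP5D ranged from 145 through a median of 191 to 263 CPM, and in Y27 EB from 142 through 189 to 232 CPM. The arms overlapped almost completely. Their log2 difference was 0.04 ± 0.09 (SE; adjusted p 0.777, edgeR), and library totals alone and reference gene scaling turned its sign (-0.29 and -0.044, neither called). Against hESC, ATP5D was 1.28-fold lower in CEPT EB (log2 fold change -0.36 ± 0.15, SE; adjusted p 0.0296, edgeR) and 1.37-fold lower in Y27 EB (-0.45 ± 0.12, adjusted p 0.00195, edgeR). The decrease in CEPT EB was not called with library totals alone (-0.36), a minimum of 10 reads per library (-0.30) or probes summed per gene (-0.26). Nor was it called with replicates 1 to 4 of each group alone, a fit of 8 libraries, without a replicate block (-0.24) or with one (-0.25). That in Y27 EB was not called with library totals alone (-0.068). Reference gene scaling turned both to increases, of 0.79 and 0.83, both called.

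The panel holds no further ATP synthase gene of the list used. From the respiratory chain it holds NDUFB11, an accessory subunit of NADH dehydrogenase, CYC1, a cytochrome subunit of the complex that reduces cytochrome c, and CYCS, cytochrome c itself, with 7 probes in all. None of the 7 was called between the EB arms, where 23.6% of all tested probes were called. Against hESC, the 3 CYC1 probes fell in ectoderm by between 0.42 and 0.55 on the log2 scale, in CEPT EB by between 0.59 and 0.78 and in Y27 EB by between 0.57 and 0.68. In mesoderm CYC1 probe 148 rose by 0.31 (adjusted p 0.00647, edgeR), and probes 147 and 149 had differences of 0.14 and 0.18 that were not called. In endoderm the CYC1 probes were not called (between -0.10 and -0.01). NDUFB11 probe 933 rose in CEPT EB by 0.94 and in Y27 EB by 0.79. It also rose in ectoderm by 0.38 and in endoderm by 0.53, and was not called in mesoderm (0.14). NDUFB11 probe 497, at 3.14 CPM in hESC, was not called in either arm (0.05 and -0.64) and was not tested in the lineages. CYCS probe 152 rose by 2.48 in CEPT EB and 2.42 in Y27 EB, from 6.19 CPM in hESC to 33.9 and 32.7 CPM. CYCS probe 151 rose by 1.77 in Y27 EB and was not called in CEPT EB (1.53, adjusted p 0.068, edgeR). In ectoderm, mesoderm and endoderm, probe 152 had log2 fold changes of -2.37, -1.78 and -0.93, all called. Probe 151 was at -2.05, -1.33 and -1.07, the last not called. Levels of CYCS were low in these lineages, with means of 1.25, 2.10 and 3.62 CPM for probe 152. For probe 151 they were 1.31, 2.50 and 2.88 CPM.

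USMG5 lies on chromosome 10 at 103389050 to 103396475 (RefSeq, GRCh38.p14, minus strand). Its probes name different RefSeq transcripts, NM_032747 at position 349 (probe 785) and NM_001206427 at position 575 (probe 1026). The annotation lists 1 processed pseudogene named for the gene, ATP5MDP1, and reads that it might share with the probes cannot be counted from these files. In the controls USMG5 was lowest in ectoderm and highest in endoderm. With probe 785, the hESC replicates 1 to 4 were at 660.7, 779.4, 738.9 and 872.6 CPM, and the ectoderm replicates at 482.0, 443.0, 334.6 and 565.1 CPM. The endoderm replicates were at 1377.4, 1211.2, 902.5 and 1719.2 CPM. Every ectoderm library lay below, and every endoderm library above, the hESC range. The mesoderm replicates were at 1058.8, 831.5, 436.6 and 941.4 CPM. Of these, replicate 3 lay below the hESC range, replicate 2 within it, and replicates 1 and 4 above it. Scaled by library totals alone, the ectoderm and endoderm ranges each overlapped that of hESC. Ectoderm replicate 4 was then at 553.3 CPM and hESC replicate 1 at 549.0 CPM, endoderm replicate 3 at 614.6 CPM and hESC replicate 4 at 820.2 CPM.

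USMG5 was lower in ectoderm by 0.80 ± 0.26 with probe 785 and by 0.57 ± 0.14 with probe 1026 on the log2 scale (SE; adjusted p 0.0103 and 0.000731, edgeR). Reference gene scaling turned these to increases of 0.79 and 1.00, probe 785 was not called without ectoderm replicate 2 (-0.64), and probe 1026 was not called in the fit of all 48 libraries (-0.65). In endoderm probe 1026 went from 358 ± 62.2 to 802 ± 137 CPM (SD, n = 4 each), a log2 fold change of 0.99 ± 0.13 (SE; adjusted p 1.89e-06, edgeR). Probe 785 rose by 0.60 ± 0.26 (adjusted p 0.0448, edgeR), a call that was lost in 6 of the 8 fits that left out 1 hESC or endoderm library (0.46 to 0.61), with upper-quartile scaling (0.25), with library totals alone (0.30) and in the fit of all 48 libraries (0.67). In mesoderm neither probe was called, with log2 differences of -0.16 ± 0.25 and 0.26 ± 0.13 (SE; adjusted p 0.571 and 0.0885, edgeR). Probe 1026 was called higher in mesoderm in 12 of 17 alternatives, among them DESeq2 (0.34), library totals alone (0.58) and reference gene scaling (1.13). Without mesoderm replicate 3, probe 785 had a difference of 0.22 and probe 1026 rose by 0.51 (adjusted p 0.000764, edgeR).

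Both EB arms held far more USMG5 RNA than any control group, and CEPT EB more than Y27 EB. Probe 785 ranged from 4616 through a median of 7027 to 12965 CPM in CEPT EB and from 1918 through 3481 to 5845 CPM in Y27 EB. The highest control library, endoderm replicate 4, was at 1719.2 CPM, below all 32 EB libraries. Against hESC, probe 785 was 10.7-fold higher in CEPT EB (log2 fold change 3.42 ± 0.27, SE; adjusted p 9.98e-11, edgeR) and 4.83-fold higher in Y27 EB (2.27 ± 0.30, adjusted p 5.45e-07, edgeR). Probe 1026 was 7.50-fold and 4.13-fold higher (adjusted p 3.04e-09 and 6.2e-06, edgeR). Rises larger than that of probe 785 were found for 175 of 940 tested probes in CEPT EB and 238 of 963 in Y27 EB. For probe 1026 these counts were 200 and 258. The probe 785 site took 0.0711% of all reads in hESC, 0.420% in Y27 EB and 0.744% in CEPT EB. Against endoderm, the nearest control, probe 785 was 6.35-fold higher in CEPT EB and 2.70-fold higher in Y27 EB, while the ranges of probe 1026 in Y27 EB and endoderm overlapped (log2 difference 0.81, adjusted p 0.0167, edgeR).

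Between the EB arms, 2 of the 6 probes were called, both of USMG5 and both higher in CEPT EB. Over all 867 tested probes 23.6% were called, 10.6% as higher in CEPT EB. Probe 785 was at 7939 ± 2364 CPM with CEPT and 3649.8 ± 1271 CPM with Y-27632 (SD, n = 16 each), a 2.16-fold difference (log2 fold change 1.11 ± 0.16, SE; adjusted p 5.15e-06, edgeR). Probe 1026 was at 2603 ± 855 and 1464 ± 542 CPM, a 1.77-fold difference (0.82 ± 0.17, adjusted p 0.000571, edgeR). With both probes, the Y27 EB median was exceeded by each of the 16 CEPT EB libraries. The ranges still overlapped, as they did for all but 0.231% of tested probes. With probe 785, CEPT EB replicates 16, 4 and 7 lay below the highest Y27 EB library, replicate 4. Of the 867 probes, 37 had a higher log2 fold change than probe 785 and 72 a higher one than probe 1026. Both calls held in all alternatives run, with log2 fold changes from 0.82 to 1.18 for probe 785 and from 0.52 to 0.90 for probe 1026, the lowest with library totals alone.

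Probes on short transcripts were more often higher in CEPT EB. The transcripts of both USMG5 probes are short, at 560 bases for probe 785 and 626 for probe 1026, by the GENCODE 29 transcripts paired with them. Leaving out ALDOC, ATP5D and USMG5, 55 probes of 30 genes lay on transcripts under 1000 bases. Of these, 45.5% were higher in CEPT EB and 1.82% lower, with a median log2 fold change of 0.54. Among the 783 probes on longer transcripts, 8.3% were higher and 14% lower, with a median of -0.06. Against hESC, the median of the probes on short transcripts was 1.42 for CEPT EB and 0.71 for Y27 EB, against 0.41 and 0.35 for those on longer ones. For endoderm the short and long medians were 0.64 and 0, for ectoderm -0.09 and 0.17, and for mesoderm -0.26 and -0.19. ATP5D, whose transcript has 997 bases, lay at 0.04 between the arms. The part of transcript length in the USMG5 differences, between the arms or from hESC, was not tested.

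**Figure D4:**
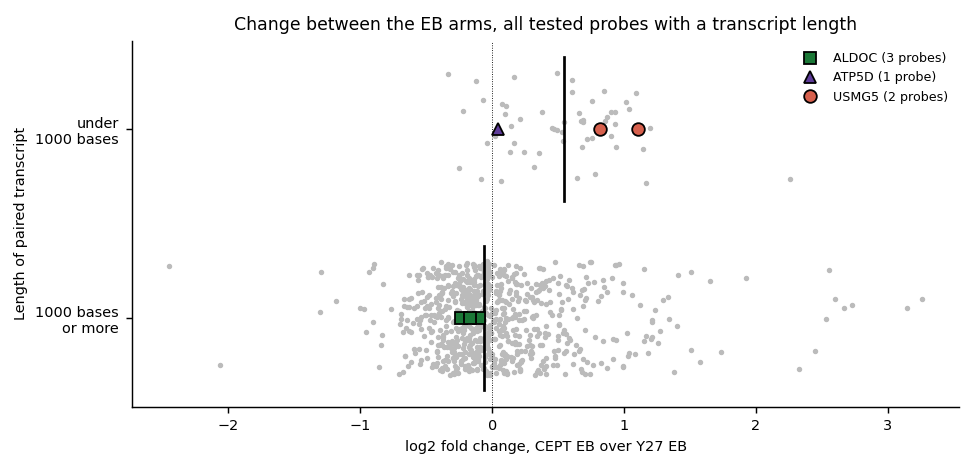
Log2 fold change of CEPT EB over Y27 EB for each tested probe with a paired transcript, by transcript length; grey points are other genes, black lines the medians without ALDOC, ATP5D and USMG5, and height within a band is random. The grey medians are 0.54 under 1000 bases and -0.06 above; the USMG5 probes lie at 1.11 and 0.82, ATP5D at 0.04 and the ALDOC probes between -0.23 and -0.10.

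The ratio of 2 probes within a library does not depend on how libraries are scaled, and was used to set the subunits of the same enzyme against each other. Its absolute size reflects capture by each probe, so only its change between groups is described. The log2 ratio of USMG5 probe 785 to ATP5D was 1.56 ± 0.07 in hESC, 1.29 ± 0.42 in ectoderm, 0.81 ± 0.75 in mesoderm and 1.77 ± 0.35 in endoderm (SD, n = 4 each). It reached 5.31 ± 0.41 with CEPT and 4.21 ± 0.58 with Y-27632 (SD, n = 16 each). The lowest EB library, at 3.34, stood above the highest control library, at 2.06, while the arms overlapped from 4.76 to 5.31. With probe 1026 in place of 785 the ratio was 0.46 in hESC, 2.87 in Y27 EB and 3.69 in CEPT EB. RNA of these 2 ATP synthase subunits thus did not keep a constant ratio across the groups. Across the libraries of an arm, USMG5 probe 785 and ATP5D had r = 0.368 in CEPT EB (Spearman 0.368, adjusted p 0.275, permutation) and r = -0.0568 in Y27 EB (Spearman -0.112, adjusted p 0.833, permutation). With library totals alone, r in Y27 EB became -0.612 (adjusted p 0.0216, permutation).

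The ratio of the 2 USMG5 probes also moved between groups. The log2 ratio of probe 785 to probe 1026 was 1.10 ± 0.13 in hESC, 0.85 ± 0.26 in ectoderm, 0.59 ± 0.42 in mesoderm and 0.68 ± 0.21 in endoderm (SD, n = 4 each). It was 1.62 ± 0.26 in CEPT EB, from 1.30 to 2.05, and 1.33 ± 0.10 in Y27 EB, from 1.13 to 1.51 (SD, n = 16 each). The lowest value, -0.02, was in mesoderm replicate 3. For ALDOC probes 1275 and 1276, mean log2 ratios lay from 0.62 in hESC to 0.68 in endoderm over the 4 control groups, at 0.73 ± 0.22 in Y27 EB and at 0.91 ± 0.30 in CEPT EB (SD, n = 16 each). Within the EB arms this ratio had a larger SD than that of the USMG5 probes. Probe 1275 to probe 1277 spread further, with a log2 ratio of 2.27 ± 0.55 in CEPT EB (SD, n = 16), from 1.44 to 3.23.

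**Figure D5:**
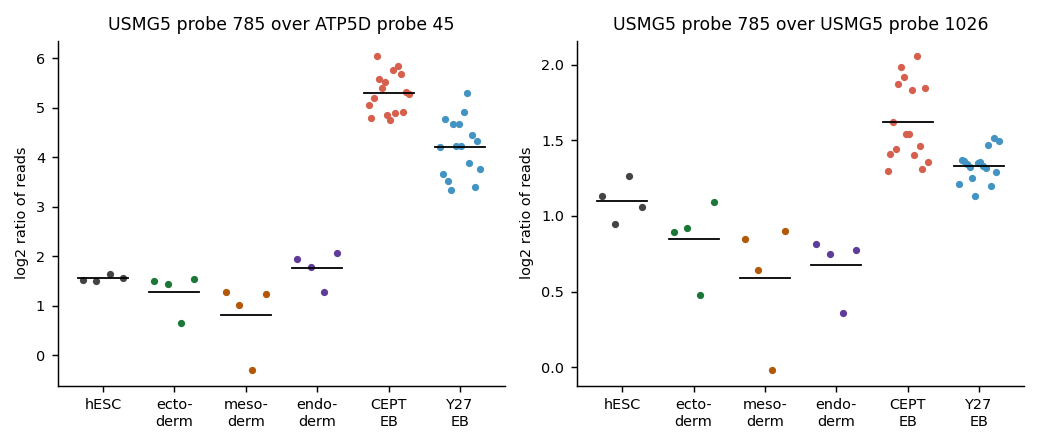
Log2 ratio of reads within each library, with 0.5 reads added to each count, for USMG5 probe 785 over ATP5D probe 45 (left) and over USMG5 probe 1026 (right); points are libraries and bars group means. The left ratio is at most 2.06 in the controls and at least 3.34 in the EBs.

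The ratios of these genes to ALDOC moved between groups as well. The log2 ratio of USMG5 probe 785 to ALDOC probe 1275 was -0.28 in hESC and -0.14 in mesoderm, 2.16 in ectoderm and 3.92 in endoderm, and 3.87 in Y27 EB and 5.04 in CEPT EB. The ratio of ALDOC probe 1275 to ATP5D was 1.84 in hESC, 0.95 in mesoderm, 0.27 in CEPT EB, 0.34 in Y27 EB, -0.87 in ectoderm and -2.16 in endoderm.

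Genes with the most similar pattern over the 6 groups were found by the root mean square difference of the group means of log2 CPM, each centred on its own mean, among probes with a mean log2 CPM of at least 5. It is a description over 6 points. For ALDOC probe 1275, its own other probes were nearest, at 0.10 and 0.15, followed at a distance by PRKCA, a protein kinase C, at 0.58, PLBD1 at 0.62 and PYGL, the liver glycogen phosphorylase, at 0.75. For ATP5D the nearest was CYC1 probe 148 at 0.16, then GSTP1, a glutathione transferase, and YAP1, a transcriptional coactivator, both at 0.21. For USMG5 probe 785, its other probe was at 0.36, followed by TMSB10, an actin-binding thymosin, at 0.53, CYP2B6 probe 1174, of a cytochrome P450 gene, at 0.54, and FAM162A at 0.59. The transcript paired with TMSB10 has 496 bases and that with FAM162A 3052.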

How the data were processed

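The values are raw read counts per probe, deposited by the authors as a table per sample. The submitters' processing notes name the build hg38 and DESeq2; how reads were matched to probes is not given in the sources used here. A merged table repeats the 48 libraries and holds 16 further columns, which were not used. Libraries of a group differed by more than sampling noise, and none was merged.

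All probes of ALDOC, ATP5D and USMG5 are reported; genes of the glycolysis, ATP synthase, respiratory chain and hypoxia lists are counted and named where a list has at most 6 on the panel. These genes and lists were chosen with earlier results of these data known. Counts were tested with edgeR 4.0.16 in R 4.3.3 (filterByExpr, TMM, robust quasi-likelihood, two-sided). The 32 EB libraries, the 16 control libraries, and each EB arm with 1 control group were fitted separately, over 15 pairs of groups. The labels do not say that replicate numbers pair libraries, but same-numbered ectoderm, mesoderm and endoderm libraries deviated together (r at least 0.15 in each pair), so comparisons between lineages were also fitted with that block. Log2 CPM used a prior count of 2. Alternatives were other scalings, other count filters, DESeq2 1.42.0, a replicate block, summed probes, 1 fit of all libraries and each library left out. The fit was tested on simulated counts. Genes and transcript lengths came from RefSeq and GENCODE 29. Probe sequences were not analysed here. Reads are PCR products without molecular identifiers.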

Additional observations from a re-analysis of the deposited data

How the results depend on the processing

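Of 978 refitted log2 fold changes, 913 kept their direction and their side of the threshold, 29 lost the call, 12 gained one and 24 changed sign. The calls that ended are given beside the results. Of 6 probes, 3 were called in mesoderm against hESC, but 6 with reference gene scaling and 1 in the fit of all 48 libraries, where the SE was larger. Reference gene scaling, which moved the median of all probes by 0.84 to 1.54 in the 5 comparisons with hESC, changed the sign of ATP5D in ectoderm (1.02), CEPT EB (0.79) and Y27 EB (0.83) and of USMG5 in ectoderm (0.79 with probe 785, 1.00 with probe 1026). In mesoderm it did so for ALDOC (0.49, 0.44 and 0.77 with probes 1275, 1276 and 1277) and USMG5 probe 785 (0.72). Also in mesoderm, ALDOC probe 1277 became 0.23 with library totals, 0.076 with at least 10 reads per library, 0.14 in the fit of all libraries and 0.044 to 0.15 without mesoderm replicate 2, 3 or 4, and ranged from -0.15 to 0.15 with each library left out. USMG5 probe 785 became 0.15, 0.0053 and 0.066 in those first 3 settings, 0.19 with summed probes and 0.22 without mesoderm replicate 3 (-0.31 to 0.22 with each library left out). USMG5 probe 1026 gained a call in mesoderm in 12 of 17 alternatives. Between the EB arms, ATP5D became -0.29 with library totals and -0.044 with reference genes. Without Y27 EB replicate 14, ALDOC probes 1275 and 1277 became 0.044 and 0.028, from a lowest of -0.25 and -0.33 with another library left out. Of 36 recomputed relations across EB libraries, 3 changed sign, all in Y27 EB and none called: ALDOC with SLC16A1 (0.149, library totals) and with USMG5 (-0.213, library totals; -0.00079, ALDOC probe 1276). These relation settings were chosen after seeing the data. The cause of these changes was not tested.

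Library totals alone raised the calls between the EB arms from 205 to 339, of which 14.2% rather than 44.9% were higher in CEPT EB, and moved the median by -0.31. With median-ratio factors 58.8% were higher. The endoderm mean levels of all 6 probes were lower with library totals alone, for ATP5D 251 CPM in place of 373 CPM. At least 10 reads in every library gave 426, 395 and 400 calls of 510 probes in ectoderm, mesoderm and endoderm, 426 of 544 in CEPT EB and 407 of 505 in Y27 EB, since fewer probes were tested. Same-numbered EB libraries did not deviate together (r from -0.61 to 0.21, and 1 of 16 correlated best with its own number). For hESC with the lineages or the EB arms, r was at most 0.18. Between Y27 EB and hESC, though, 3 of 4 libraries correlated best with their own number (r from -0.05 to 0.12). Whether same-numbered libraries in these comparisons share a batch cannot be told from these correlations. With the replicate block, 167 probes were called between the EB arms, the same 2 of USMG5 among them (1.13 and 0.85), and USMG5 probe 1026 was called in mesoderm (0.26). Against hESC the block left replicates 1 to 4 of each EB arm, where ATP5D in CEPT EB was not called with it (-0.25) or without it (-0.24). Same-numbered lineages did deviate together, and a block over the 3 lineages alone, added after seeing the data, changed no call of the 6 probes between lineages. The lowest counts were 43 to 48 reads, for ALDOC probe 1277.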

Other observations

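USMG5 probe 785 varied more between the libraries of a lineage than most probes. The SD of its log2 CPM was 0.57 in mesoderm, where 33 of 515 probes had a larger one, 0.39 in endoderm (25 of 526) and 0.32 in ectoderm (46 of 542). Replicate 3 was the lowest of the 4 libraries in each of the 3 lineages, at 334.6 CPM in ectoderm, 436.6 in mesoderm and 902.5 in endoderm. In hESC, replicate 1 was the lowest, at 660.7 CPM. Replicate 3 also had the lowest read total of its group in ectoderm (2283016), mesoderm (2358531), endoderm (2982467) and hESC (1773969). The labels do not say that a number marks a shared batch. Same-numbered ectoderm, mesoderm and endoderm libraries deviated together over the panel, with a correlation of at least 0.15 in each pair.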
